A study of Mus musculus with 6 samples.

Results

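The expression of 10 genes of the 2-cell-like state, namely Dux, Zfp352, Tmem92, Tcstv1, Tcstv3, Gm8300, Usp17la, Usp17lb, Usp17lc and Usp17le, was measured by RNA sequencing in paraquat-treated mouse embryonic stem cells with and without Pml. All 10 were found among the 24421 genes of the deposited table. They were chosen by gene name with their levels in these same 4 libraries already known, so each difference between the genotypes is given below as a description, with no p-value, for these 10 genes. The cells were E14, a line of mouse embryonic stem cells. The wild-type group held 2 libraries from E14 cells, and the knockout group held 2 libraries from E14 cells labelled Pml-/-. Both groups had received 10 µM paraquat, a redox cycler that produces superoxide, for 15 h, so the response to paraquat itself was not measured. Both were grown in serum medium with leukemia inhibitory factor and inhibitors of GSK3 (CHIR99021) and MEK (PD0325901), which together hold cells in a naive pluripotent state. The protein made from Pml builds the scaffold of PML nuclear bodies. Whether the Pml-/- cells were 1 clone, how the gene was disrupted and whether replicate libraries came from separate cultures cannot be read from the labels, so every p-value given here reflects a spread that may be technical. The other 2 samples of the series, chromatin labelled around PML, were not analysed here.

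In the mouse embryo the genome is first transcribed at large scale at the 2-cell stage, when a set of genes and MERVL retroviral repeats is switched on for a short time. In embryonic stem cell cultures a small and changing minority of cells re-enters a similar program. The double homeobox factor DUX is known to bind and activate many of these genes and repeats, and Zfp352, the Tcstv genes, the Usp17l genes and the Zscan4 genes are widely used as readouts of the state.

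Promoter sequences from RefSeq (build GRCm38.p6) were matched by symbol for 4 of the 10 genes, and the 250 bases before each listed start are shown because they hold features that the choice of genes did not use. The stretch before Zfp352 (chr4:90218570-90218819, plus strand) is printed with each copy of TAATCC in capitals, a hexamer bound by bicoid-type homeodomain proteins.
Zfp352: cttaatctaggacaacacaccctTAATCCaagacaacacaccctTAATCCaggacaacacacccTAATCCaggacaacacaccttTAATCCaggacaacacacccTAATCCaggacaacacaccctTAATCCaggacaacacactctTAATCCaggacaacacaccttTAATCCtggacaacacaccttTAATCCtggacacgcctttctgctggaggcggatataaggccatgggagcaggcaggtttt
It held 9 copies, 20 or 21 bases apart, from 227 to 56 bases before the start. Counted on both strands, at least 1 copy was found in 6.38% of the 27025 stretches of this length in the table. The number in Zfp352 was the highest of them, and 1 stretch, its own, held 9 or more. The copies lie in a tandem repeat of a unit of 20 or 21 bases, so other short runs within the unit recur in the same way. The count therefore does not single out this hexamer, and binding to it was not measured.

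The stretches before Usp17la (chr7:104856766-104857015, plus strand), Usp17lb (chr7:104842584-104842833, minus strand) and Usp17lc (chr7:103416446-103416695, plus strand) are printed to show how alike these gene copies are, with capitals for runs of at least 12 bases that all 3 share.
Usp17la: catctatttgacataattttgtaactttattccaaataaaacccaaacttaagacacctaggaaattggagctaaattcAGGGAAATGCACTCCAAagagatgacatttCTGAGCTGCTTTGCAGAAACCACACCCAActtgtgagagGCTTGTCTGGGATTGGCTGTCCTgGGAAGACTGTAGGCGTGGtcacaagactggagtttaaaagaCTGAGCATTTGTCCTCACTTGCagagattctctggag
Usp17lb: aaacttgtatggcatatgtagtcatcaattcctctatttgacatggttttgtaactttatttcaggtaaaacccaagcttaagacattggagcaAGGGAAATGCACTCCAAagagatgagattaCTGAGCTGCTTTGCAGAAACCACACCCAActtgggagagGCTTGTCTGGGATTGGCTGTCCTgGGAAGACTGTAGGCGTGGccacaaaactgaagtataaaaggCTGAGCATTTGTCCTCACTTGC
Usp17lc: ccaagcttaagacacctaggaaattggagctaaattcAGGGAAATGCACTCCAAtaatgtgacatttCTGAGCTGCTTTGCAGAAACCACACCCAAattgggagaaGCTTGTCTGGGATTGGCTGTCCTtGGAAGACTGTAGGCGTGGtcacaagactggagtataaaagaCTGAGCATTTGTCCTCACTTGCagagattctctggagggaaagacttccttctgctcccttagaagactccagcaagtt
There were 5 such blocks, in the same order in each, covering 109 of the 250 bases, and the longest had 29 bases. Of the 27025 stretches, 4 held that longest block: the 3 printed here and that of the related copy Usp17ld. Over a global alignment the stretches of Usp17la and Usp17lb were 73.6% identical, those of Usp17la and Usp17lc 67.8%, and those of Usp17lb and Usp17lc 57.3%. The longest block contains CCACACCC, a site type of Kruppel-like factors, which on either strand was present in 3.19% of all stretches. ATTGG, the reverse of the CCAAT box, occurred on either strand 2 times before Usp17la and Usp17lb and 4 times before Usp17lc, against at least 1 time in 34.5% of all stretches. TATAAA occurred on either strand 1 time before Usp17lb and Usp17lc and not before Usp17la, against 13.0% of all stretches. The core of the DUX site, GATTNAATC, which reads the same on both strands, was in none of the 4 printed stretches and in 0.259% of all stretches.

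The wild-type libraries held 31384794 and 44130093 reads and the Pml-/- libraries 38150397 and 43715807, recovered from the deposited CPM (reads per 1000000 reads counted in genes), so that 1 read was worth 0.0227 to 0.0319 CPM. Pml stood at 233 ± 7.50 CPM in the wild-type libraries, and 84.2 ± 7.80 CPM in the Pml-/- libraries (SD, n = 2 each), which leaves 36.2% of the transcript level, counted over the whole gene (by limma -1.46 on the log2 scale, SE 0.059, adjusted p = 4.43e-10). The stem cell markers Pou5f1, Sox2, Nanog, Zfp42, Klf4, Esrrb and Tfcp2l1 summed to 5806 and 5914 CPM in the wild-type libraries, and 5952 and 6037 CPM in the Pml-/- libraries, and limma called Tfcp2l1 higher and Zfp42 lower. The labels' library kit entry of wild-type library 2 names only the DNA kit of the chromatin samples. Results without this library are given for some genes only, or as part of ranges over left-out libraries. The recovered reads come from bulk libraries, so more cells in the 2-cell-like state and more RNA per such cell cannot be told apart.

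Dux and Zfp352, the 2 transcription factor genes among the 10, were both low and both stood higher in each knockout library than in either wild-type library. Dux, the upstream activator, was at 0.127 and 0.249 CPM in the wild-type libraries (4 and 11 reads), and stood at 0.393 and 0.869 CPM in the Pml-/- libraries (15 and 38 reads). The library values of the groups did not overlap, and knockout library 2 was the highest. From reads pooled within groups the knockout to wild-type ratio was 3.26, with an exact 95% counting interval of 1.81 to 6.23. This interval, like the others here, covers counting error only, and reads without molecular identifiers are not independent molecules. The 2 knockout libraries also lay apart from each other, with counting intervals of 0.220 to 0.648 CPM and 0.615 to 1.19 CPM that overlap only narrowly. The interval of knockout library 1 also overlapped those of the wild-type libraries, 0.0347 to 0.326 and 0.124 to 0.446 CPM. The ratio of group means was 3.35 with all libraries, 2.09 without knockout library 2 and 4.95 without wild-type library 2. The size of the Dux difference thus rests on few reads. It is also not known how any Dux reads that match several places in the genome were counted. Zfp352, a zinc finger gene of the same program, was at 0.542 and 0.499 CPM in the wild-type libraries (17 and 22 reads), and stood at 0.917 and 1.40 CPM in the Pml-/- libraries (35 and 61 reads). Here the wild-type libraries were close together and the knockout libraries were spread, again with library 2 the higher. The pooled ratio was 2.27 (counting interval 1.55 to 3.38).

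Tmem92, which encodes a predicted membrane protein, had the smallest difference among the genes above 1 CPM. It was at 2.17 and 2.33 CPM in the wild-type libraries and at 3.62 and 3.11 CPM in the Pml-/- libraries, from 68 to 138 reads per library. The groups did not overlap, and the pooled ratio was 1.48 (counting interval 1.22 to 1.80).

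Tcstv1 and Tcstv3, of the 2-cell-stage variable group of transcripts, were the pair with the least even behaviour. Tcstv3 was at 0.191 and 0.385 CPM in the wild-type libraries (6 and 17 reads), and stood at 0.786 and 0.709 CPM in the Pml-/- libraries (30 and 31 reads). Both knockout libraries lay above both wild-type libraries, with a pooled ratio of 2.45 (counting interval 1.49 to 4.14). The ratio of group means was 2.59, and 3.91 without wild-type library 2. Tcstv1 was at 0.0956 and 0.113 CPM in the wild-type libraries (3 and 5 reads), and stood at 0.262 and 0.0458 CPM in the Pml-/- libraries (10 and 2 reads). It is the 1 gene of the 10 whose groups overlapped: its knockout libraries were the highest and the lowest of the 4. Its pooled ratio of 1.38 had a counting interval of 0.520 to 3.90, so at this depth no difference was detectable. The ratio of group means, 1.47 with all libraries, was 0.438 without knockout library 1 and 2.51 without knockout library 2. The labels do not say how reads that match both Tcstv genes were counted. Their transcripts were not compared here, so the level of each is uncertain.

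Gm8300, a predicted protein-coding gene on chromosome 12, was at 4.14 and 4.78 CPM in the wild-type libraries (130 and 211 reads), and stood at 7.55 and 8.90 CPM in the Pml-/- libraries (288 and 389 reads). The groups did not overlap and the pooled ratio was 1.83 (counting interval 1.61 to 2.09).

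**Figure D1:**
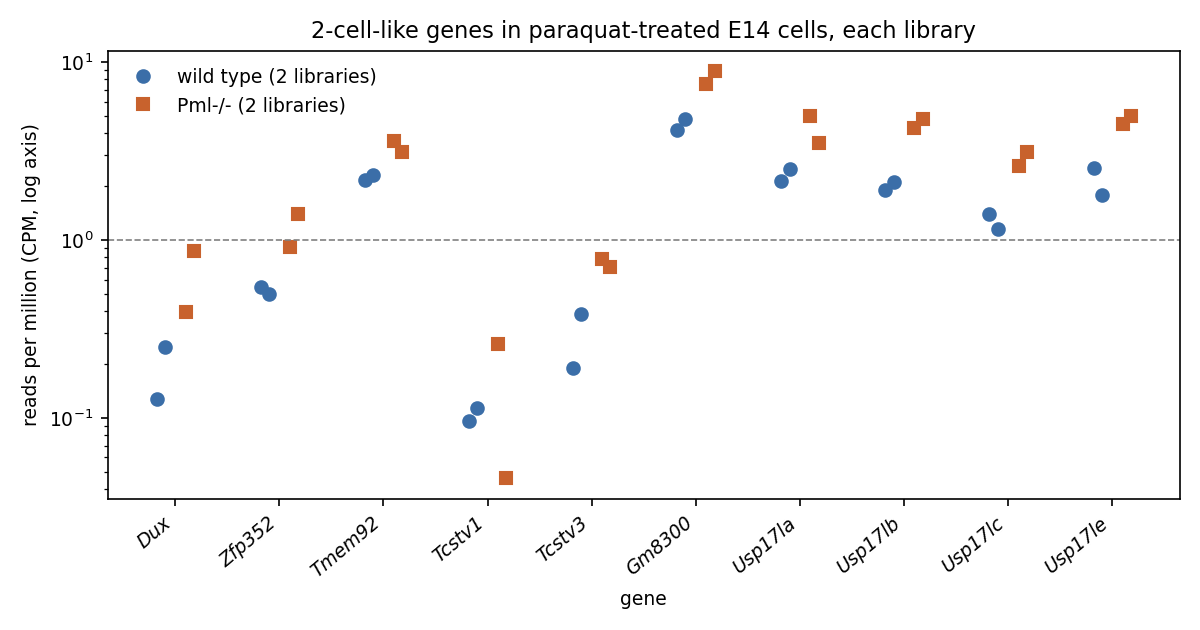
CPM (log axis) of each of the 10 genes in each library, wild type as circles and Pml-/- as squares, with a dashed line at 1 CPM, the minimum mean for testing. In 9 genes both squares lie above both circles, and in Tcstv1 the squares are the highest and the lowest point.

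The Usp17l genes encode deubiquitinating enzymes of a multi-copy family first described as cytokine-induced in blood cells. Each of the 4 copies stood higher in both knockout libraries than in both wild-type libraries, and their sum in the knockout was 2.11 times that in wild type. The sum of the 4 was 7.998 and 7.57 CPM in the wild-type libraries (251 and 334 reads) and 16.4 and 16.4 CPM in the Pml-/- libraries (624 and 718 reads). Within each group the 2 libraries were nearly level, at 7.78 ± 0.30 CPM in the wild-type libraries, and 16.4 ± 0.048 CPM in the Pml-/- libraries (SD, n = 2). The pooled ratio was 2.12 (counting interval 1.92 to 2.34), and the ratio of group means lay between 2.05 and 2.17 when any 1 library was left out. On the log2(CPM + 1) scale, which understates changes of low genes, the difference was 0.99 with a standard error of 0.035. That error rests on 2 libraries per group. The knockout libraries had counting intervals of 15.1 to 17.7 and 15.2 to 17.7 CPM, far wider than their SD. The SD of the knockout libraries was thus smaller than their counting error, and the standard error understates the uncertainty.

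Single copies were less even than their sum. Usp17la was at 2.13 and 2.52 CPM in the wild-type libraries and at 4.98 and 3.50 CPM in the Pml-/- libraries, with a pooled ratio of 1.78 (counting interval 1.48 to 2.14). Usp17lb was at 1.91 and 2.11 CPM in the wild-type libraries and at 4.27 and 4.78 CPM in the Pml-/- libraries, with a pooled ratio of 2.24 (1.85 to 2.73). In Usp17la the higher knockout library was library 1, in Usp17lb library 2. Usp17lc was at 1.40 and 1.16 CPM in the wild-type libraries and at 2.59 and 3.13 CPM in the Pml-/- libraries (ratio 2.29, 1.80 to 2.94). Usp17le was at 2.55 and 1.79 CPM in the wild-type libraries and at 4.51 and 5.01 CPM in the Pml-/- libraries (ratio 2.27, 1.88 to 2.75). The counting intervals of the 4 ratios overlap one another.

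The way the sum was divided among copies also differed between libraries of 1 group. Usp17la took 30.4% of the reads of the 4 copies in knockout library 1 (190 of 624 reads, Clopper-Pearson 95% interval 26.9 to 34.2%) and 21.3% in knockout library 2 (153 of 718 reads, 18.4 to 24.5%), intervals that do not overlap. In wild type it took 26.7% (21.3 to 32.6%) and 33.2% (28.2 to 38.6%). Usp17le took 31.9% (26.2 to 38.0%) and 23.7% (19.2 to 28.6%) of the wild-type reads of the 4 copies. Its share was 27.6% and 30.5% in the knockout. Usp17lb stayed between 23.9 and 29.1% and Usp17lc between 15.3 and 19.1% over the 4 libraries. The labels do not say how reads that match several gene copies were counted, and the transcripts of the copies were not compared here, so the level of a single copy is uncertain. Usp17ld, a related copy outside the 10, was at 0.605 and 0.340 CPM in the wild-type libraries and at 1.44 and 1.05 CPM in the Pml-/- libraries, below the minimum mean for limma and with an edgeR adjusted p of 0.0633.

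**Figure D2:**
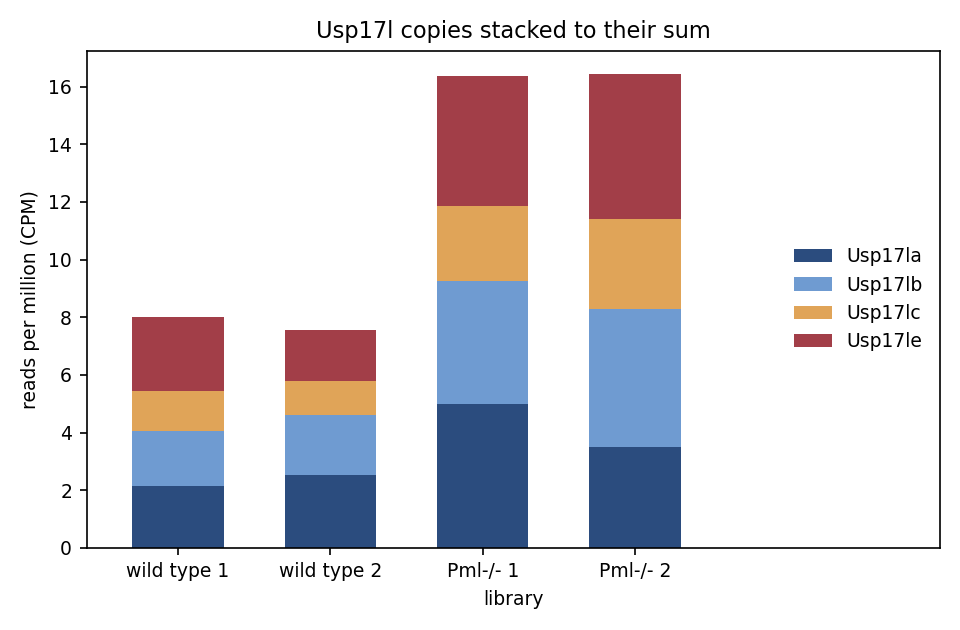
CPM of the 4 Usp17l copies in each library, stacked so that the bar height is their sum. The bars reach 7.998 and 7.57 CPM in the wild-type libraries, and 16.4 CPM in both knockout libraries, while the Usp17la segment is 4.98 CPM in knockout library 1 and 3.50 CPM in library 2.

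Over the 10 genes, the group mean was higher in the knockout in 10, and both knockout libraries lay above both wild-type libraries in 9. Over all 18761 genes with a read, that non-overlapping order was found in 20.9%, and the opposite order in 22.1%. The ratio of group means ran from 1.47 in Tcstv1 to 3.35 in Dux, with a median of 2.21. A mean of at least 1 CPM, the minimum for testing, was reached by 6 genes (Tmem92, Gm8300 and the 4 Usp17l copies), each of which exceeded 1 CPM in every library, and was missed by 4 (Dux, Zfp352, Tcstv1 and Tcstv3). The fit over all genes with limma called 5 of the 6 at an adjusted p of 0.05, all but Tmem92, against 5.41% of 12710 tested genes, 1.95% in the direction of higher in the knockout and 3.45% lower. With edgeR on recovered reads 5 of 9 tested genes were called, against 4.19% of 14782. Since the genes were chosen with these values known, nothing is read from these counts.

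**Figure D3:**
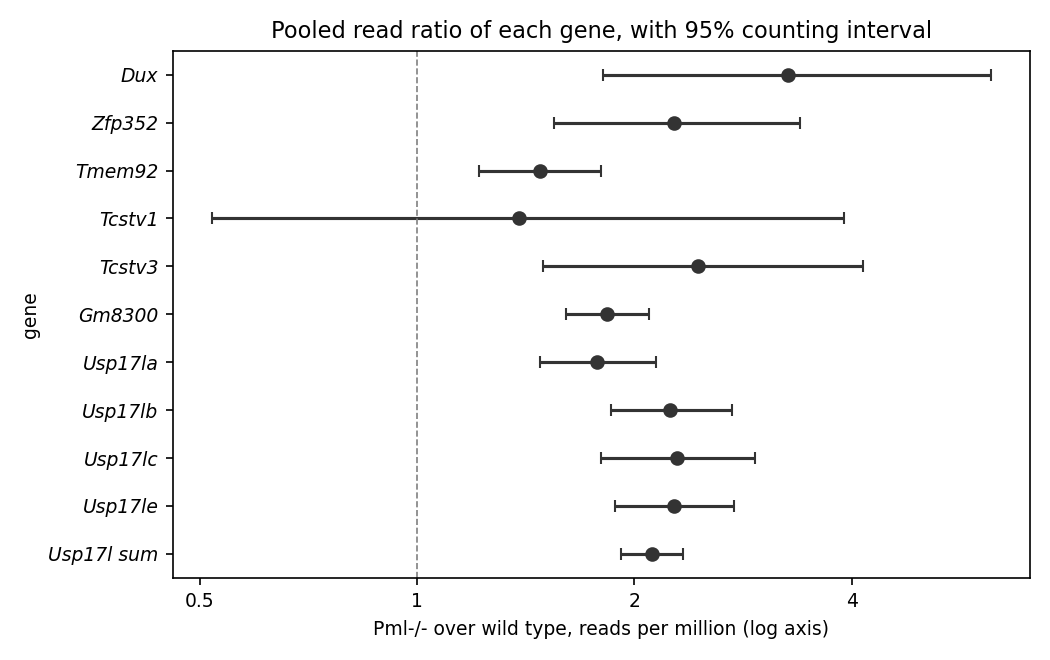
Knockout to wild-type ratio of CPM, pooled over the 2 libraries of each group (log axis), for each gene and the Usp17l sum, with exact 95% counting intervals. The interval of Tcstv1, 0.520 to 3.90, spans 1, and the narrowest, 1.92 to 2.34, belongs to the Usp17l sum.

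Other genes of the 2-cell-like state also stood higher in the knockout. Of a list of 43 such genes that leaves out the 10, 39 were in the table, 31 had a read and 14 reached the minimum mean. Of these 14, 8 rose and 0 fell (limma, adjusted p under 0.05), against 1.95% and 3.45% of all tested genes, with a median log2 fold change of 0.60 against a median near 0 over all tested genes. The 8 were Zscan4a, Zscan4b, Zscan4c, Zscan4d, Gm2016, Gm5662, Gm5039 and Gm20767. Of the 31 with a read, both knockout libraries lay above both wild-type libraries in 25 and below them in 1, against 20.9% and 22.1% of all genes with a read. Since this list too was drawn up with results known, nothing is read from these counts. The same limit holds for the adjusted p-values given for genes of this list, which are descriptions and not independent tests. Zscan4c, of a zinc finger family that acts on telomeres in these cells, rose from 2.17 and 1.74 CPM to 4.98 and 4.62 CPM, a log2 fold change of 0.98 (SE 0.15) with a limma adjusted p of 0.00145. Zscan4a rose from 5.54 and 4.53 CPM to 9.12 and 10.2 CPM (limma adjusted p = 0.00176). Gm5039 rose from 3.57 and 3.40 CPM to 6.92 and 6.70 CPM (limma adjusted p = 0.00228). Gm5662 rose from 3.44 and 4.35 CPM to 6.97 and 7.14 CPM (limma adjusted p = 0.00601), a call that ended without knockout library 2 (limma adjusted p = 0.0582) and with no filter on low values (limma adjusted p = 0.0626). The number called was 4 without knockout library 1 (Zscan4a, Zscan4c, Gm5039 and Gm5662) and 3 without knockout library 2 (Zscan4a, Zscan4c and Gm5039). The gene farthest in the other direction was Ddit4l, at 22.3 and 22.2 CPM in the wild-type libraries, and 19.3 and 19.8 CPM in the Pml-/- libraries (limma adjusted p = 0.264). Copies of the Zscan4 family and of the predicted genes on chromosome 12 resemble one another too, so single members are uncertain.

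**Figure D4:**
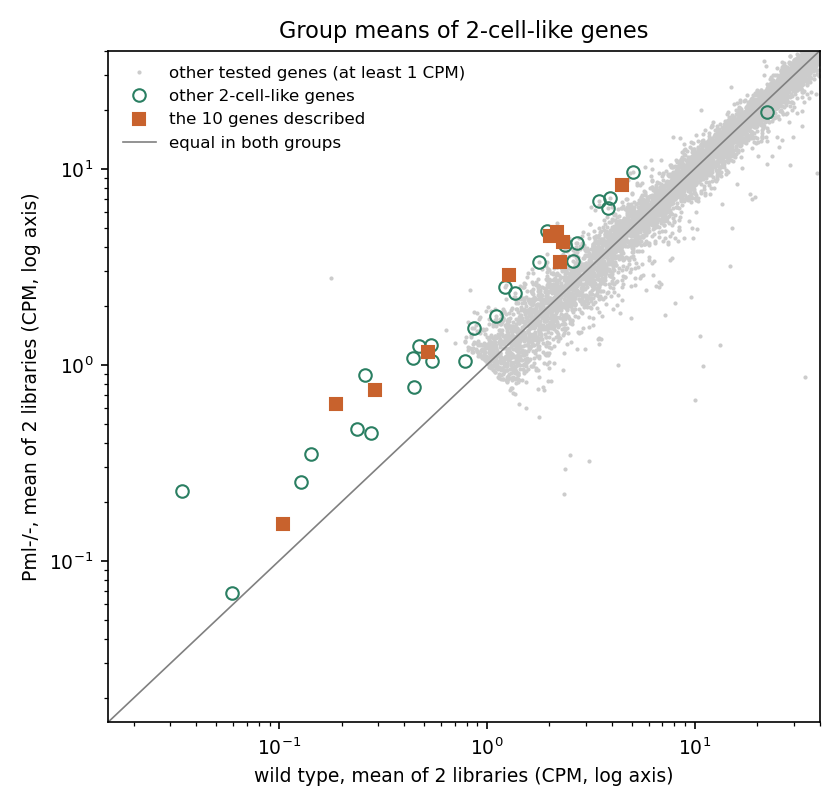
Mean CPM of the 2 knockout libraries against that of the 2 wild-type libraries (both axes log), for the 10 genes (squares), the other listed 2-cell-like genes with reads in both groups (open circles) and all other tested genes up to 40 CPM (grey). The 10 squares lie above the line of equality, and most open circles do, with Ddit4l at 22 CPM below it.

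Genes known to act upstream of Dux were read beside the 10. Of the activators Dppa2, Dppa4, Trp53 and Nelfa, 0 of 4 passed with limma, edgeR or DESeq2, and 0 had an unadjusted limma p under 0.05. Dppa2 was at 89.9 and 82.7 CPM in the wild-type libraries, and 76.7 and 89.7 CPM in the Pml-/- libraries, and Dppa4 at 69.3 and 58.3 CPM against 57.0 and 61.6 CPM. Trp53 was at 572 and 546 CPM in the wild-type libraries, and 519 and 587 CPM in the Pml-/- libraries, and Nelfa at 95.3 CPM in both libraries with Pml against 95.9 and 104 CPM. Of 18 genes that hold Dux or the 2-cell-like state down, such as Chaf1a, Kdm1a, Trim28 and Setdb1, 0 passed with limma or edgeR. Of the 18, 2 had an unadjusted limma p under 0.05. The log2 fold changes of the 18 lay between -0.14 and 0.13, with 15 of them positive. Both knockout libraries lay above both wild-type libraries in 7 and below them in 1, against 20.9% and 22.1% of all genes with a read. Since this list too was drawn up with results known, nothing is read from these counts. DESeq2 called 1 of the 18 genes. This gene, Ncl, was chosen after its values were seen and was at 2545 and 2534 CPM in the wild-type libraries, and 2777 and 2784 CPM in the Pml-/- libraries (limma adjusted p = 0.0903). These are transcript levels, and the activity of the proteins was not measured.

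Markers of other cell types that such a culture can hold were also read, and limma called 1 of their 10 tested genes. The 7 primitive endoderm markers summed to 9.94 and 8.63 CPM in the wild-type libraries, and 8.89 and 11.5 CPM in the Pml-/- libraries, with 0 of 3 tested genes called by limma, 0 with an unadjusted p under 0.05 and 0 called by edgeR or DESeq2. The 7 fibroblast markers summed to 7.58 and 6.84 CPM in the wild-type libraries, and 5.82 and 6.47 CPM in the Pml-/- libraries, with Dcn listed at 0 in all 4 libraries and 0 of 2 tested genes called by limma, edgeR or DESeq2 or at an unadjusted limma p under 0.05. The 7 trophoblast markers summed to 76.3 and 82.4 CPM in the wild-type libraries, and 100.4 and 98.7 CPM in the Pml-/- libraries. Most of that sum was Tfap2c, which stem cells also express and which rose from 49.8 and 55.2 to 70.7 and 71.9 CPM (limma adjusted p = 0.000845). The 4 other tested trophoblast markers were not called by limma. From wild type to knockout, mean CPM was 5.02 and 5.73 in Gata3, 10.1 and 11.0 in Krt8, and 4.30 and 4.95 in Krt18. Eomes went the other way, from 6.71 to 5.86 CPM. Cdx2 stayed under 1 CPM and Elf5 was at or near 0 in all 4 libraries. The part of these genes in the differences of the 10 was not tested.

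Of the 10 genes, 9, all but Dux, were placed by symbol in the RefSeq gene table (GRCm38.p6). Usp17le, Usp17lb and Usp17la follow each other on chromosome 7 between 104767961 and 104862667, and Usp17lc lies on the same chromosome from 103416696 to 103419174. Of the 41 other table genes within 500 kb of the first 3, 35 had no read and 33 were olfactory receptor genes. The only tested one, Trim12c, was at 5.77 and 5.91 CPM in the wild-type libraries, and 4.88 and 3.68 CPM in the Pml-/- libraries. It was not called by limma, edgeR or DESeq2, although its unadjusted limma p was under 0.05. Within 500 kb of Usp17lc, 54 of 57 genes had no read. The related copy Usp17ld, described above, was among those with reads. The Usp17l copies were thus read from stretches in which most other table genes had no read in either genotype.

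Tcstv1 (119893387 to 119894785) and Tcstv3 (120316862 to 120318261) lie on chromosome 13, and Gm8300 (87514316 to 87518265) on chromosome 12. Around the Tcstv pair, 1 of 7 tested neighbours within 500 kb was called by limma, Gm20767, itself on the list of 2-cell-like genes, which rose from 1.69 and 1.88 to 3.54 and 3.16 CPM (limma adjusted p = 0.0252). Around Gm8300, 1 of 16 tested neighbours was called by limma, Gm2016, also on that list, which rose from 2.58 and 2.18 to 3.80 and 4.35 CPM (limma adjusted p = 0.035). Both calls ended without either knockout library and with no filter on low values, that of Gm20767 also without wild-type library 1 and that of Gm2016 without wild-type library 2, and DESeq2 called 0 genes in either region. With edgeR 1 gene was called in each region, Gm20767 (edgeR adjusted p = 0.0319) and Gm2016 (edgeR adjusted p = 0.0371). An unadjusted limma p under 0.05 was found for 5 of the 7 neighbours of the Tcstv pair, whose median log2 fold change was -0.16. The same held for 6 of the 16 around Gm8300, with a median of 0.08. The share of all tested genes under that unadjusted threshold was not counted, so such counts here cannot be called high or low. At the adjusted threshold limma called 5.41% of all 12710 tested genes, and edgeR 4.19% of 14782. Tmem92 (94777217 to 94782703, chromosome 11) had 15 tested neighbours, of which limma, edgeR and DESeq2 called 0 and 2 had an unadjusted limma p under 0.05. Zfp352 (90218820 to 90225687, chromosome 4) had 1 other table gene within 500 kb, without a read.

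The genes whose pattern over the 4 libraries came closest to that of the Usp17l sum were taken from 12129 tested genes outside the lists, by the Euclidean distance between centred log2(CPM + 1) values, leaving out predicted and clone names. They were Grb10 (distance 0.112), an imprinted adaptor gene at 185 and 175 CPM in the wild-type libraries, and 324 and 341 CPM in the Pml-/- libraries, and Plac8 (0.119), at 0.828 and 0.838 CPM against 2.46 and 2.33 CPM. Phlda2 followed (0.232), then AU015836 (0.241) and Aldh3a1 (0.275). Their ratios of group means were between 1.80 and 2.88. The highest ratio was that of Plac8, and the log2(CPM + 1) scale understates changes of such low genes. Plac8 was under 1 CPM in both wild-type libraries, so it reached the minimum mean only through the knockout libraries. With 4 libraries such a distance describes mainly the step between the genotypes, and it was used as a description only.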

How the data were processed

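Per the labels, polyadenylated RNA of 4 libraries was sequenced. Per the submitters' processing notes, the authors used cutadapt, TopHat and edgeR with the mm10 genome; the notes give no version, annotation, strand setting or treatment of multiply matching reads. The deposited table gives CPM per gene and library, with the authors' log2 fold change (wild type over knockout), their log2 mean CPM, and their p-value and false discovery rate; of these only CPM was used. Dividing CPM by the value of 1 read gave whole reads for 100% of values (tolerance 0.001 reads), and 5660 genes had none. Depth ranged from 31384794 to 44130093 reads.

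Genes averaging at least 1 CPM were fitted by limma 3.58.1 with a trend under R 4.3.3, taking log2(CPM + 1) values, genotype as the only term, Benjamini-Hochberg over 12710 genes, threshold 0.05; it was tested on simulated data. Alternatives were edgeR 4.0.16 (TMM, filterByExpr) and DESeq2 1.42.0 on recovered reads, TMM scaling, a pseudocount of 0.25 CPM, no filter, leaving out each library, and the replicate number as a block. Ratio intervals are exact binomial on pooled reads, and library intervals exact Poisson. The members and lists were chosen with earlier results of these data known. Named genes were the 10, Pml, up to 4 called genes per list by adjusted p, every gene of lists with 5 or fewer tested, and the 5 closest profiles; others are said to be named after their values were seen, apart from list genes given as examples, markers and neighbours. Where RefSeq lists several starts of a gene, the first was used. Promoters were aligned with Biopython 1.88. The 2 chromatin samples were not analysed here.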

Additional observations from a re-analysis of the deposited data

How the results depend on the processing

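The count of 9 genes with both knockout libraries above both wild-type libraries was also 9 under TMM scaling. A pseudocount, a left-out library or pairing by number cannot lower that count, so those settings say nothing about its stability. The log2 difference of Tcstv1 ranged from -0.0787 (without knockout library 1) to 0.193 when 1 library was left out. The Usp17l sum, at 0.99, was 1.05 with a pseudocount of 0.25 CPM, which shrinks low values less, and 0.95 to 1.02 when 1 library was left out. TMM moved the median of all genes by 0.002. Over all genes limma called 687, against 298 with no filter and 367 to 869 without 1 library (439 if wild-type library 1 is dropped, 367 if knockout library 2 is). Of the other 2-cell-like genes 8 were called, against 4 with no filter (B020004J07Rik, Gm5039, Zscan4a and Zscan4c), 5 with DESeq2 and 3 to 7 without 1 library. Of the genes that hold Dux down 0 were called, against 1 with DESeq2 (Ncl) and 0 to 2 without 1 library (Max and Ncl, without knockout library 1). Leaving out 1 library turned the sign of 3 uncalled genes, with log2 fold changes of -0.107 to 0.0717 for Trp53, -0.166 to 0.0564 for Dppa2 and -0.223 to 0.0227 for Dppa4. A group left with 1 library was assumed to vary like the other. The cause of these differences was not tested.

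With the replicate number as a block limma called 1198 genes, 9 of the other 2-cell-like genes and 0 of the Dux regulators. The labels say nothing of what a number shares, and deviations of same-numbered libraries correlated at 0.12 across genes. Below about 1 CPM, counting error limits what could be seen for Dux, Zfp352 and the Tcstv genes.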
